A study of Homo sapiens with 18 samples.

Results

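The genes described are the transcriptional coactivators YAP1 and WWTR1, the 4 TEAD transcription factors they bind (TEAD1 to TEAD4), and 4 of their best-known target genes, ANKRD1, AMOTL2, CYR61 and CTGF. These 10 genes were selected by symbol from the 26372 gene symbols of the expression table. WWTR1 is the gene that encodes TAZ, and the symbol TAZ in such tables belongs to tafazzin, an unrelated gene. CYR61 and CTGF are the older symbols of CCN1 and CCN2. The set was chosen with measured values in view, namely the difference of its genes between days and the WWTR1 difference between deletion and WT libraries at day 18. Those differences are therefore given as descriptions. Where a count of genes past the threshold is given for them, it stands beside the share of all tested genes and nothing is read from it.

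YAP and TAZ lack DNA-binding domains of their own and act on genes mainly through TEAD factors. In the Hippo pathway, the kinases STK3 and STK4, with the scaffold SAV1, activate LATS1 and LATS2, which phosphorylate YAP and TAZ and keep them out of the nucleus. Cell contact, cell shape and adhesion set how much of the coactivators reaches the nucleus, so their activity is not read from their own RNA alone. In neuroblastoma lines, high YAP1 and high levels of its targets are known as features of the mesenchymal-type, substrate-adherent cell state.

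RNA-seq was made from SH-SY5Y, an established cell line from a human neuroblastoma of sympathoadrenal type, which can be turned into neuron-like cells. The cells received ZNHIT3 by a lentivirus made from the FUGW plasmid, as the wild-type sequence (WT), as the C14R substitution or as a deletion. No group is described as lacking the cells' own ZNHIT3, so each line may still carry it beside the delivered copy. Day 0 libraries and libraries after 18 days in serum-free medium with KCl, dibutyryl cyclic AMP (db-cAMP), BDNF and all-trans retinoic acid gave 6 groups of 3 libraries, 18 in all. The series' design text names the deletion as ∆251-254, while the treatment labels of its replicates end at 254, 255 or 256, and the titles call these libraries depleted. They were kept as 1 group per day.

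Values are FPKM, that is, fragment numbers divided by transcript length and by the library's mapped fragments. FPKM of ZNHIT3 did not overlap between the constructs on either day, with WT highest and the deletion lowest. The single-fragment steps of low values put day 0 libraries at 59.0% to 84.3% of the deepest library and day 18 libraries at 82.0% to 100%. The small nucleolar RNA gene SNORD3A held 6.87% to 58.6% of all FPKM in day 0 libraries and 1.01% to 15.1% at day 18. Leaving small RNA genes out and rescaling moved the median day difference of all tested genes in WT from 0.03 to 0.21 on the log2 scale, which is relevant to small differences between days. The sympathoadrenal markers PHOX2A, HAND2, GATA3 and DBH were present on both days. TH, the first enzyme of catecholamine synthesis, was near 0, with group means in WT of 0.0406 and 0.535 FPKM.

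TEAD factors recognise the motif GGAATG. Promoter windows of 300 bases, from 250 before to 50 after the annotated start (RefSeq, GRCh38.p14), were at hand for 7 of the 10 genes, and 4 of these held the motif on either strand (CATTCC on the other strand). They are shown because 3 are target genes, which TEAD factors are known to act on, and 1 is a coactivator's own gene. Each is printed 5′ to 3′ on the gene's strand, from 250 bases before the start up to the start, with matches in capitals.
CTGF (chr6:131951373-131951622, minus strand): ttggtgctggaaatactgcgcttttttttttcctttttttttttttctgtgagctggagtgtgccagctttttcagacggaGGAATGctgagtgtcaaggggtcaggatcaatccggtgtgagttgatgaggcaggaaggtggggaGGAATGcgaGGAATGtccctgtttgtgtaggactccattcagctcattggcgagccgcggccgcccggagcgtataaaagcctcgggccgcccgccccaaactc
ANKRD1 (chr10:90921088-90921337, minus strand): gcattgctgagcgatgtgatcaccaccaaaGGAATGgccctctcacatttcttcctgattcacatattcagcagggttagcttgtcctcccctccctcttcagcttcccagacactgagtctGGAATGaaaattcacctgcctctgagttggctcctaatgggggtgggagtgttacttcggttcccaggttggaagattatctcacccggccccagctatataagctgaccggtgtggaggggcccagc
AMOTL2 (chr3:134374448-134374697, minus strand): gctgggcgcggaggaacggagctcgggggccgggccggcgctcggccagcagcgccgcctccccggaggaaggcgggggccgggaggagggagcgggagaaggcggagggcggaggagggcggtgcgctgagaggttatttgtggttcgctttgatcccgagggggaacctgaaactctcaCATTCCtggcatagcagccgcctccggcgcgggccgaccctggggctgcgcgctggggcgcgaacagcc
YAP1 (chr11:102110197-102110446, plus strand): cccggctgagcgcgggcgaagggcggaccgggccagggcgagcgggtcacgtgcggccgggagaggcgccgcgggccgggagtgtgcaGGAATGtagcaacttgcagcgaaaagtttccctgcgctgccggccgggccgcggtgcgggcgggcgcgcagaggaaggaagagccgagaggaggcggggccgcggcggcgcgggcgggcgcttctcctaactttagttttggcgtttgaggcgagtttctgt
CTGF held 3 matches, beginning 169, 104 and 95 bases upstream of its start, and ANKRD1 held 2, at 220 and 128 bases. AMOTL2 held 1 match in 1 of its windows, 69 bases upstream and on the other strand, and YAP1 held 1 at 162 bases. Of 35116 RefSeq promoter windows of the same length, 14.03% held at least 1 match, 1.37% at least 2 and 0.128% at least 3. A match describes these letters and is not a bound site. WWTR1, TEAD2 and TEAD3 held none in their windows. Promoters of CYR61, TEAD1 and TEAD4 are not shown.

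From day 0 to day 18, both coactivators were lower in every line, and YAP1 was lower than WWTR1 in proportion. YAP1 (chromosome 11, 102110461 to 102233423, plus strand, GRCh38) had 3.29, 3.50 and 3.41 FPKM in WT replicates 1 to 3 at day 0, against 0.376, 0.558 and 0.429 at day 18. The C14R replicates had 3.31, 2.37 and 3.18 FPKM at day 0 against 0.162, 0.513 and 0.525 at day 18. In the deletion line, the values of 3.69, 3.17 and 3.30 at day 0 stood against 0.382, 0.513 and 0.378 at day 18. The days did not overlap, and day 18 means were 13.4%, 13.5% and 12.5% of day 0 means in WT, C14R and deletion lines. The differences on the log2(FPKM + 1) scale were -1.60, -1.501 and -1.62 (SE 0.11 each). That scale understates the change of low values, and with a pseudocount of 0.1 in place of 1 the differences were -2.67, -2.70 and -2.74.

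WWTR1 (chromosome 3, 149517235 to 149736714, minus strand) had 5.70, 4.86 and 5.25 FPKM in WT at day 0, against 2.09, 2.36 and 2.28 at day 18. C14R libraries had 4.81, 4.73 and 5.43 FPKM at day 0, against 1.79, 1.53 and 1.66 at day 18. Deletion libraries had 5.58, 5.11 and 5.27 at day 0, against 1.42, 1.47 and 1.20 at day 18. The days were apart in all 3 lines, and the constructs, which shared 1 range at day 0, were ordered WT, C14R, deletion at day 18 without overlap. Day 18 means were 42.6%, 33.3% and 25.6% of day 0 in WT, C14R and deletion, with log2 differences of -0.95, -1.17 and -1.42 (SE 0.08 each).

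WWTR1 thus made up more of the coactivator pair at day 18. Its share of the summed YAP1 and WWTR1 FPKM at day 0 was 60.7% ± 2.65 in WT (SD, n = 3), against 63.0% ± 3.69 in C14R and 61.1% ± 0.808 with the deletion. At day 18 the shares were 83.3% ± 2.08, 80.9% ± 9.42 and 76.3% ± 2.34. The wide spread in C14R came with replicate 1, whose YAP1 value of 0.162 FPKM was the lowest of the 18 libraries. The sum of the pair fell from 8.67 ± 0.320 to 2.70 ± 0.230 FPKM in WT. These are ratios and sums within a library, and the ratio does not depend on how libraries were scaled.

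Markers of other cell states moved on the same day contrast. The mesenchymal-type list (VIM, FN1, CD44, SNAI2, PRRX1, TGFBI, COL1A1, COL1A2, COL3A1 and TWIST1) had summed levels of 1030 to 1201 FPKM at day 0 and 159.8 to 177.3 FPKM at day 18. All 8 of its 8 tested genes were lower past the threshold in each line (limma, Benjamini-Hochberg adjusted p under 0.05). PRRX1 was listed at 0 in the WT libraries of day 18. Sums of the neuronal list (STMN2, MAP2, NEFL, NEFM, SYT1, SNAP25, ELAVL4 and DCX) were 904 to 963.0 FPKM at day 0 and 1785 to 2027 at day 18. In each line 8 of 8 genes were higher past the threshold, beside 38.2% of all tested genes in WT, 37.9% in C14R and 38.6% in deletion. Sums of 6 Schwann-type genes were 3.21 to 4.96 FPKM and 8.79 to 10.7 FPKM, with a mean of 0.282 FPKM for SOX10. Whether these changes have a part in those of YAP1, WWTR1 and their targets was not tested. In bulk libraries, fewer cells of a type and less RNA per cell cannot be told apart.

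**Figure D1:**
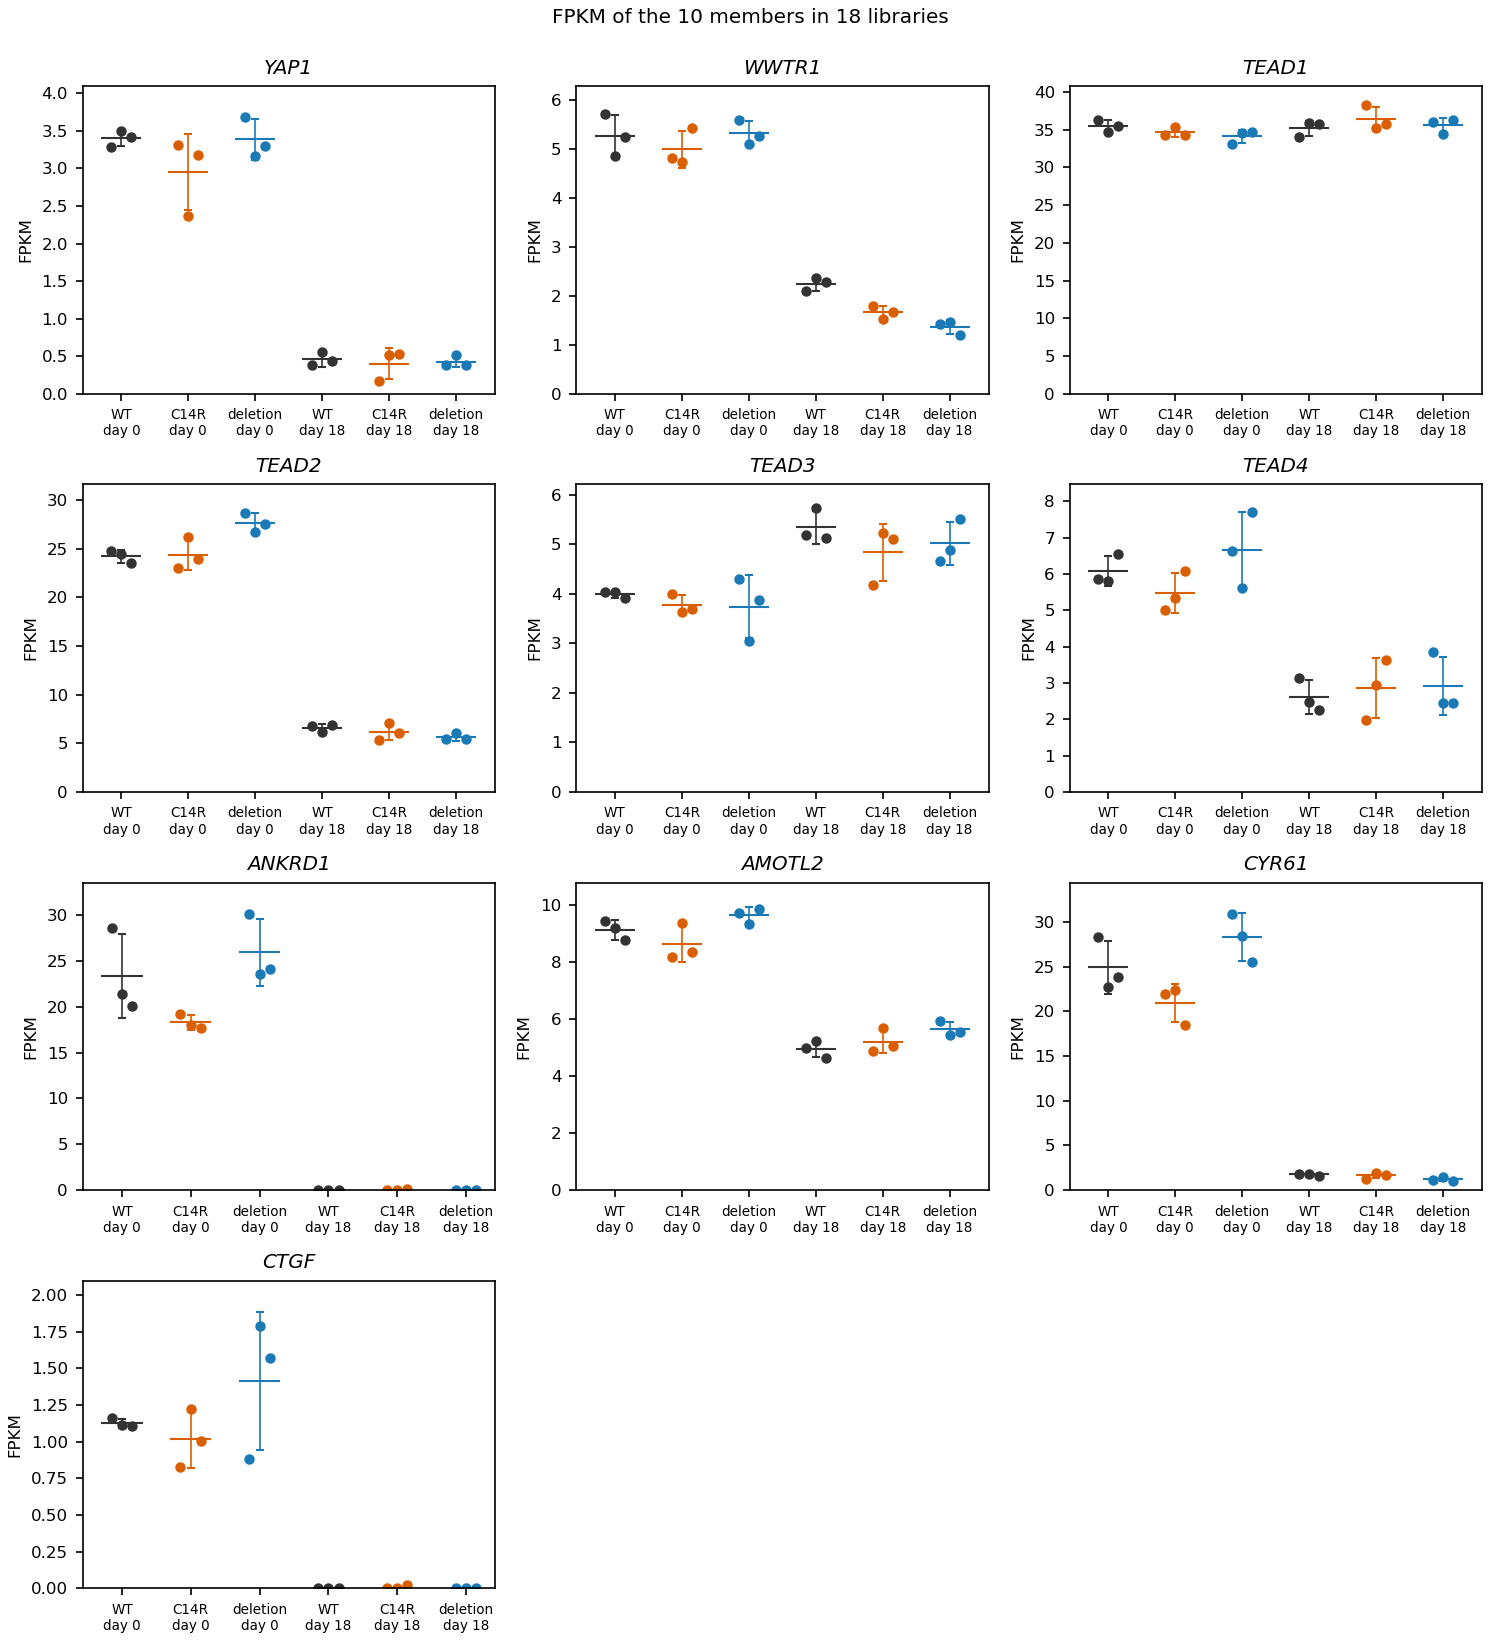
FPKM (vertical axes, starting at 0 and scaled per gene) of the 10 genes in the 18 libraries, by construct and day. Points are libraries, horizontal lines group means and error bars SD (n = 3), drawn only where no library is listed at 0. Day 18 points of YAP1, WWTR1, TEAD2, TEAD4, ANKRD1, AMOTL2, CYR61 and CTGF lie below all day 0 points, while those of TEAD1 overlap them and those of TEAD3 are higher within each line.

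The TEAD factors, which bring the coactivators to DNA, did not move as a family: TEAD2 and TEAD4 were lower at day 18, TEAD3 was higher within each line, and TEAD1 overlapped between days. TEAD1 (chromosome 11, 12674591 to 12944483, plus strand) ranged from 33.1 to 36.4 FPKM at day 0 (median 34.7, 9 libraries) and from 34.1 to 38.2 at day 18 (median 35.8). Its log2 differences between days were -0.01, 0.07 and 0.06 in WT, C14R and deletion, and with small RNA genes left out and libraries rescaled they were 0.19, 0.25 and 0.27, so the sign in WT depends on the scaling. It had the highest FPKM of the 10 genes in every group.

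TEAD2 (chromosome 19, 49340595 to 49362457, minus strand) had 24.7, 24.5 and 23.5 FPKM in WT at day 0, against 6.77, 6.17 and 6.88 at day 18. C14R replicates had 23.0, 26.2 and 24.0 FPKM at day 0, against 5.38, 7.05 and 6.07 at day 18. Deletion replicates had 28.7, 26.7 and 27.6 at day 0, against 5.40, 6.10 and 5.44 at day 18. Every day 18 library lay far below every day 0 library, at 27.2%, 25.3% and 20.4% of the day 0 mean in WT, C14R and deletion. The log2 differences were -1.73, -1.83 and -2.11 (SE 0.07 each).

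TEAD4 (chromosome 12, 2959330 to 3040673, plus strand) ranged from 5.00 to 7.71 FPKM at day 0 (median 5.85) and from 1.99 to 3.84 at day 18 (median 2.46). Its day 18 means were 43.1%, 52.2% and 43.7% of day 0 in WT, C14R and deletion, with log2 differences of -0.97, -0.77 and -0.98 (SE 0.16 each). TEAD3 (chromosome 6, 35473597 to 35497076, minus strand) was the only one of the 10 genes whose difference was above 0 in each line under every scaling tried. It ranged from 3.04 to 4.30 FPKM at day 0 (median 3.91) and from 4.17 to 5.72 at day 18 (median 5.12), so the ranges over all constructs met. Within a line the days did not overlap, and day 18 means were 134%, 128% and 134% of day 0 (log2 differences 0.34, 0.29 and 0.35, SE 0.09 each, and 0.52, 0.44 and 0.53 with small RNA genes left out).

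TEAD1 made up a larger part of the family at day 18. TEAD1 held 50.9% ± 0.525 of the summed TEAD FPKM in WT at day 0 and 70.7% ± 1.25 at day 18 (SD, n = 3). In C14R its share went from 50.7% ± 0.852 to 72.4% ± 3.80, and in deletion from 47.3% ± 1.98 to 72.4% ± 0.581. TEAD2 at day 0 held 34.7% ± 0.825 in WT, 35.7% ± 1.26 in C14R and 38.3% ± 1.04 with the deletion, and at day 18 13.3% ± 0.855, 12.3% ± 1.60 and 11.5% ± 1.08. TEAD3 went from 5.71% ± 0.113 to 10.7% ± 0.604 in WT and thereby came to exceed TEAD4, which went from 8.70% ± 0.639 to 5.27% ± 1.00.

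The family sum was lower at day 18, but less so than the sum of the coactivators. The 4 TEAD genes summed to 69.8 ± 0.994 FPKM in WT at day 0 and 49.8 ± 0.545 at day 18. The ratio of this sum to the YAP1 and WWTR1 sum at day 0 was 8.06 ± 0.193 in WT, 8.67 ± 1.10 in C14R and 8.31 ± 0.407 with the deletion. At day 18 it was 18.5 ± 1.39, 24.4 ± 1.19 and 27.8 ± 3.73. FPKM is scaled to transcript length, so these ratios compare RNA levels between genes, not protein.

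**Figure D2:**
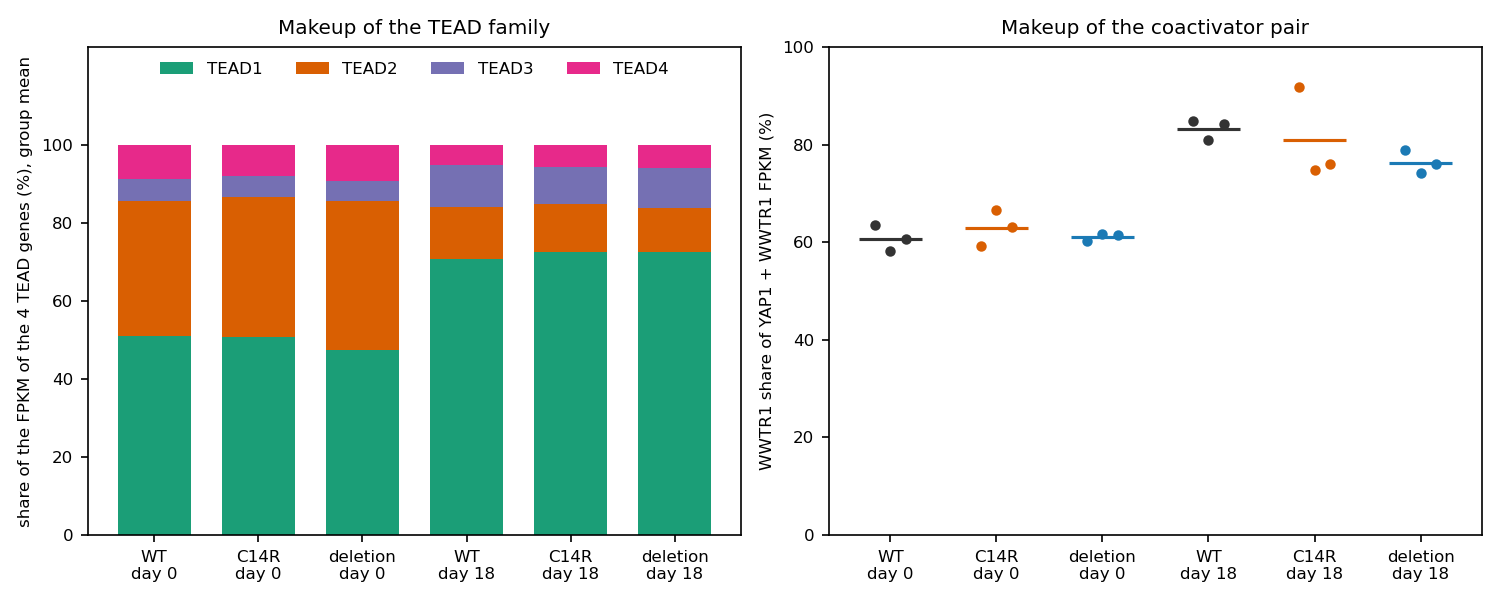
Makeup of the TEAD family (left, stacked bars: mean percentage of the summed FPKM of the 4 TEAD genes, by construct and day) and WWTR1 as a percentage of the YAP1 and WWTR1 FPKM (right, points are libraries and lines group means). TEAD1 grows from 47.3% to 50.9% of the family at day 0 to 70.7% to 72.4% at day 18, and the WWTR1 share is higher in all day 18 libraries.

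The 4 target genes were all lower at day 18, from near loss of ANKRD1 and CTGF to a partial drop of AMOTL2. ANKRD1 (chromosome 10, 90912096 to 90921276, minus strand) encodes an ankyrin-repeat nuclear cofactor and is a widely used readout of YAP activity. At day 0 it had 28.6, 21.4 and 20.1 FPKM in WT, 19.2, 18.1 and 17.7 in C14R, and 30.2, 23.5 and 24.1 with the deletion. At day 18 it was listed at 0 in 7 of 9 libraries, with 0.0870 FPKM in C14R replicate 3 and 0.0342 in deletion replicate 3. No fold is given against libraries listed at 0.

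CTGF (chromosome 6, 131948176 to 131951373, minus strand) and CYR61 (chromosome 1, 85580761 to 85583962, plus strand) encode related secreted proteins of the extracellular matrix. CTGF was low already at day 0, with 1.16, 1.11 and 1.11 FPKM in WT, 0.824, 1.22 and 1.00 in C14R, and 0.884, 1.78 and 1.57 with the deletion. At day 18 it was listed at 0 in 8 of 9 libraries, and C14R replicate 3 had 0.0237 FPKM. Adjusted for relative depth, the day 0 values were 26.9 to 54.0 times that smallest value, and if it stands for a single fragment they rest on about as many fragments. With a mean of 0.594 FPKM over all libraries the gene did not pass the filter for the tests. CTGF is thus the 1 of the 10 genes that was not tested.

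CYR61 had 28.3, 22.7 and 23.8 FPKM in WT at day 0, against 1.83, 1.84 and 1.58 at day 18. C14R replicates had 21.96, 22.4 and 18.5 FPKM at day 0, against 1.27, 1.92 and 1.73 at day 18. Deletion replicates had 30.9, 28.5 and 25.5 at day 0, against 1.16, 1.43 and 1.00 at day 18. The days were far apart, with day 18 means at 7.02%, 7.82% and 4.24% of day 0 in WT, C14R and deletion and log2 differences of -3.23, -3.06 and -3.74 (SE 0.11 each).

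AMOTL2 (chromosome 3, 134355874 to 134375479, minus strand) encodes an angiomotin-family scaffold that binds YAP and is itself a target. It ranged from 8.18 to 9.86 FPKM at day 0 (median 9.34) and from 4.64 to 5.94 at day 18 (median 5.23). Its day 18 means were 54.2%, 60.3% and 58.5% of day 0 in WT, C14R and deletion, with log2 differences of -0.77, -0.63 and -0.68 (SE 0.06 each). It kept the largest part of its day 0 level among the 4 targets.

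In all, 8 of the 10 genes had every day 18 library below every day 0 library, and 0 had every one above. Among the 9 tested genes this was 7, where 26.9% of all 13785 tested genes were lower without overlap. In each line 7 of the 9 were lower past the threshold and 1, TEAD3, was higher, and TEAD1 was not called. Over all tested genes, 72.2% passed the threshold in WT (38.2% higher, 34.0% lower), 72.9% in C14R (37.9% and 35.0%) and 73.0% in deletion (38.6% and 34.4%). Since the genes were chosen on this contrast, nothing further is read from their count.

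Regulators of the pathway did not share 1 direction. Of 26 listed kinases, scaffolds, upstream regulators and cofactors, 25 were tested. LATS2, itself a known target, was below the filter with a mean of 0.265 FPKM. In WT, 6 regulators were higher and 12 lower at day 18 (limma, adjusted p under 0.05), in C14R 6 and 10, and in deletion 6 and 12. Over all tested genes, 72.2% were called in WT (38.2% higher, 34.0% lower), 72.9% in C14R (37.9% and 35.0%) and 73.0% in deletion (38.6% and 34.4%). Nothing is therefore read from how many regulators were called. With small RNA genes left out and libraries rescaled the counts of regulators were 10 and 7, 10 and 6, and 10 and 7. The higher share of the called regulators so went from 33.3% to 58.8% in WT, from 37.5% to 62.5% in C14R and from 33.3% to 58.8% in deletion. Over all tested genes called, the same rescaling moved the higher share from 52.9% to 68.6% in WT, from 52% to 66.4% in C14R and from 52.8% to 69.4% in deletion. The list's median log2 difference in WT was -0.13, beside 0.03 over all tested genes. A set of 5 regulators was higher and 9 were lower in all 3 lines, a share that was not computed over all tested genes.

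The largest falls in WT were in the YAP-binding phosphatase PTPN14, in the LATS-binding LIM proteins AJUBA and LIMD1, and in WWC2, a scaffold of the upstream complex. PTPN14 went from 6.70 ± 0.328 to 1.501 ± 0.213 FPKM (SD, n = 3), a log2 difference of -1.62 (SE 0.08, limma adjusted p = 3.23e-12), and is also a known YAP target. AJUBA went from 6.25 ± 0.355 to 1.55 ± 0.0782 FPKM (log2 difference -1.51). LIMD1 went from 4.86 ± 0.434 to 2.00 ± 0.0733 and WWC2 from 2.98 ± 0.0653 to 1.05 ± 0.0873 FPKM (log2 difference -0.96 each). Both signs and calls of these 4 genes were the same in C14R and deletion lines.

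The largest rises in WT were in STRN, a striatin of the phosphatase complex that opposes STK3 and STK4, in the kinases TAOK1 and TAOK3, which activate STK3 and STK4, and in AMOTL1, an angiomotin. STRN went from 12.8 ± 0.533 to 22.8 ± 1.14 FPKM (log2 difference 0.79, SE 0.05, limma adjusted p = 6.2e-10). TAOK1 went from 36.6 ± 0.493 to 51.2 ± 2.66 FPKM and TAOK3 from 7.29 ± 0.254 to 10.2 ± 0.373 FPKM, log2 differences of 0.47 and 0.44. AMOTL1 went from 36.9 ± 0.571 to 46.8 ± 0.990 FPKM (log2 difference 0.33), while its relative AMOTL2 fell. None of these 4 rises or the 4 falls changed sign under the scalings tried.

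The core kinases STK3, STK4 and LATS1, named after their values were seen, moved little in WT. LATS2, below the filter and so not tested, was lower at day 18 in every line without overlap. Its mean went from 0.498 to 0.0247 FPKM in WT, from 0.487 to 0.0150 in C14R and from 0.539 to 0.0247 in deletion. These values are low, and each line had a day 18 library listed at 0. STK3 went from 12.0 ± 0.492 to 10.1 ± 0.341 FPKM in WT, a fall of 0.23 on the log2 scale (SE 0.07, limma adjusted p = 0.00709). STK4 had 18.3 ± 0.255 and 18.1 ± 0.625 FPKM on the 2 days, with a log2 difference of -0.02 (SE 0.04, adjusted p = 0.718). LATS1 had 21.0 ± 0.437 and 20.3 ± 0.694 FPKM, with a log2 difference of -0.05 (SE 0.05, adjusted p = 0.358). STK4 and LATS1 changed sign when small RNA genes were left out and libraries rescaled, and STK3 kept its sign.

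Most of the other listed targets of YAP and TAZ fell. The list was chosen with earlier results of these data known. Of 16 further textbook targets 14 were tested, and in each line 11 fell, 2 rose and 1, ARHGEF17, did not pass the threshold. Over all tested genes, 34.0% were called lower and 38.2% higher in WT, 35.0% and 37.9% in C14R, and 34.4% and 38.6% in deletion. The same 11 and the same 2 targets were called in all 3 lines, a share that was not computed over all tested genes. The list's median log2 difference was -1.37 in WT, -1.31 in C14R and -1.56 in deletion, beside medians of 0.03, 0.02 and 0.03 over all tested genes. FOXF2 was listed at 0 in every library, and NUAK2 was below the filter, with 1.38 ± 0.0448 FPKM in WT at day 0 and 0.394 ± 0.136 at day 18.

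The largest fall was that of IGFBP3, which encodes a secreted binding protein of insulin-like growth factors, from 64.9 ± 6.95 to 4.04 ± 0.150 FPKM in WT (log2 difference -3.70, SE 0.09, limma adjusted p = 8.97e-16). CRIM1, a membrane protein that binds bone morphogenetic proteins, went from 25.0 ± 0.549 to 1.81 ± 0.0986 FPKM (log2 difference -3.21). The ligand gene TGFB2 went from 11.01 ± 0.589 to 0.820 ± 0.196 FPKM (log2 difference -2.73), and NT5E, the ecto-enzyme CD73, from 17.6 ± 0.513 to 1.94 ± 0.09999 FPKM (log2 difference -2.66). These falls are several times the spread between replicates. The mesenchymal-type markers given above fell on the same contrast, and their part in these falls was not tested.

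Both rises were smaller. ASAP1, a regulator of ARF proteins at focal adhesions, went from 50.5 ± 1.63 to 86.9 ± 2.91 FPKM in WT (log2 difference 0.77, SE 0.05, limma adjusted p = 9.12e-11). F3, tissue factor, went from 1.25 ± 0.140 to 1.95 ± 0.124 FPKM (log2 difference 0.39, SE 0.11, limma adjusted p = 0.00395).

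**Figure D3:**
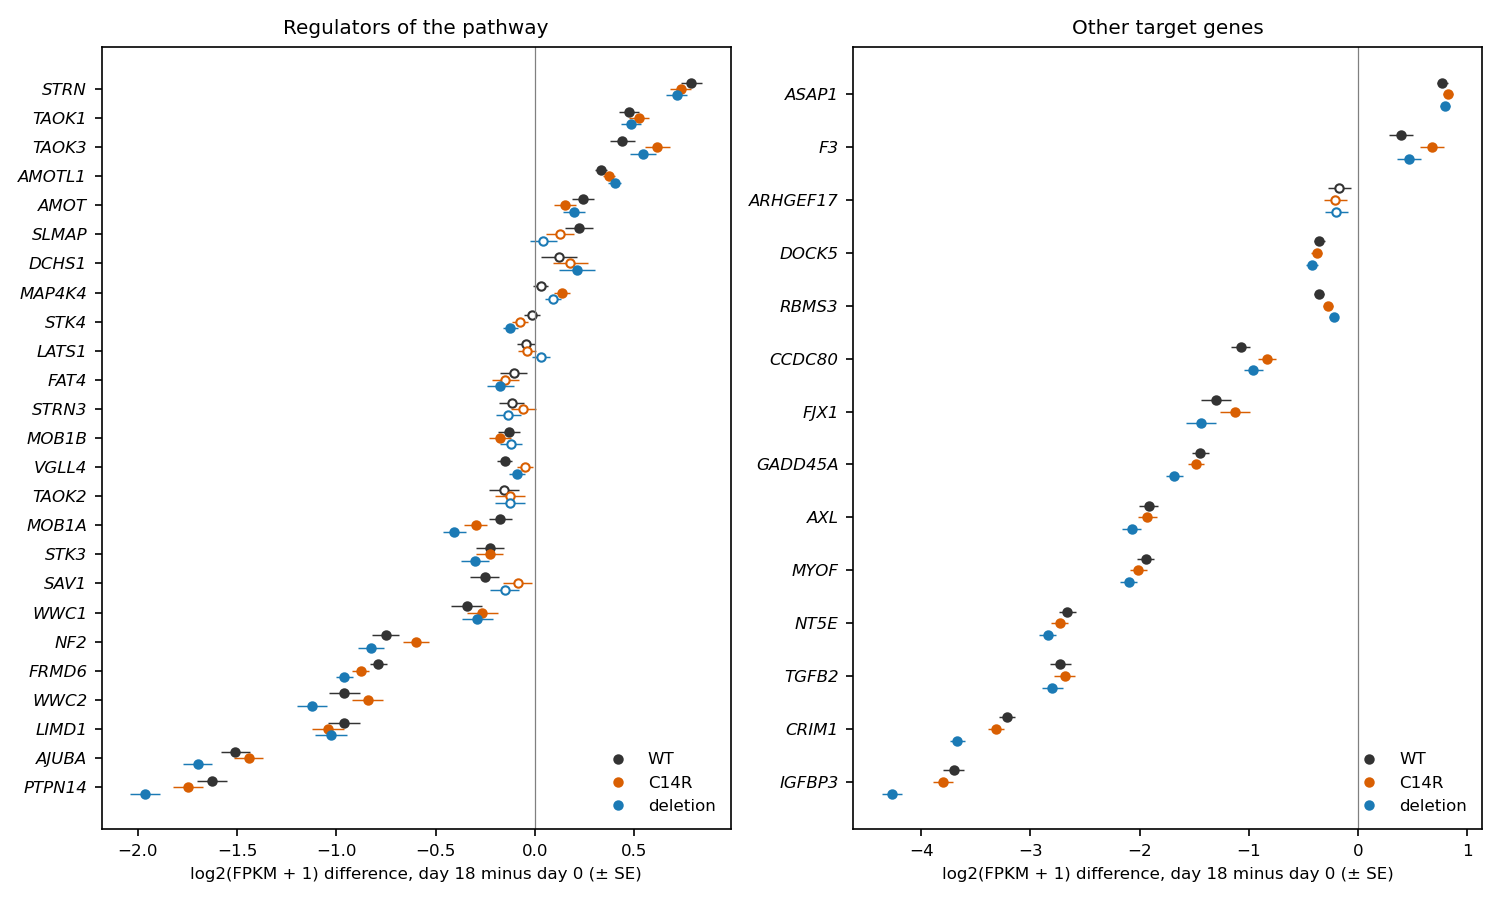
Log2(FPKM + 1) difference, day 18 minus day 0, with its standard error (horizontal bars), for 25 tested regulators (left) and 14 tested other targets (right) in each line. Filled points passed the threshold (limma adjusted p under 0.05) and open points did not. The regulators lie on both sides of 0, while 11 of the 14 targets lie below it in every line.

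The constructs differed far less than the days. At day 0, 0 of the 9 tested members passed the threshold between C14R and WT (limma), where 0% of all tested genes did, and 2 had an unadjusted p under 0.05, as did 2.81% of all tested genes. Between deletion and WT at day 0 the count was 0 of 9, beside 0.0290% of all genes, with 1 at an unadjusted p under 0.05 (6.22% of all genes). Between C14R and deletion at day 0 it was 0 of 9, beside 0.0580%, with 4 at an unadjusted p under 0.05 (9.84% of all genes).

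At day 0, the target genes ANKRD1 and CYR61 were lowest in C14R and highest in deletion on average. ANKRD1 in C14R was 78.4% of the WT mean (log2 difference -0.32, SE 0.11, limma adjusted p = 1) and 70.6% of the deletion mean (-0.47, adjusted p = 0.165, 0.0492 to 0.706 over the alternatives). CYR61 in C14R was 84.1% of the WT mean (-0.24, limma adjusted p = 1) and 74.1% of the deletion mean (-0.42, adjusted p = 0.228, 0.0507 to 0.754 over the alternatives). All C14R libraries lay below all WT and all deletion libraries for both genes. Only ANKRD1 against deletion passed the threshold under any alternative, which was array weighting. The share of all tested genes lower in C14R than in WT without overlap was not computed, so that separation has no baseline here. The differences from WT leaned on single libraries: without WT replicate 1 they were -0.17 for ANKRD1 and -0.15 for CYR61, and without C14R replicate 3 that of CYR61 was -0.15. With TEAD2, 3 of the 9 tested members were lower in C14R than in deletion without overlap, where 10.7% of all tested genes were.

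On the same comparison the mesenchymal-type sum was 1030 to 1063 FPKM in C14R, 1075 to 1085 in WT and 1141 to 1201 in deletion libraries at day 0. In 7 of its 8 tested genes the mean difference was below 0 between C14R and deletion, beside a median of -9.67e-07 on the log2 scale over all tested genes. VIM is named because it was the only gene of that list called, where 0.0580% of all tested genes were. It was the largest part of the sum, with 540 ± 19.7 FPKM of a mean sum of 1045 in C14R and 627 ± 21.3 of 1166 in deletion libraries (log2 difference -0.22, SE 0.04, limma adjusted p = 0.0403). That call was lost in 5 of the 6 fits without 1 of these libraries (adjusted p = 0.0378 to 0.281, kept without C14R replicate 2), and in 11 of all 17 alternatives (adjusted p = 0.00866 to 0.352). Under quantile scaling the difference was -0.12. The part of these markers in the ANKRD1 and CYR61 values was not tested.

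TEAD2 at day 0 was higher in deletion than in WT libraries without overlap, at 114% of the WT mean. Its log2 difference was 0.18 (SE 0.07) and missed the threshold (limma adjusted p = 0.773). TEAD1 was lower without overlap, at 96.0% of the WT mean (log2 difference -0.06, SE 0.04, limma adjusted p = 0.841). The share of all tested genes without overlap was not computed for this comparison. The TEAD2 share of the TEAD sum in deletion exceeded that of WT by 3.61 percentage points (exact two-sided permutation p = 0.1, Benjamini-Hochberg adjusted p = 0.55 over 11 tests of shares). That of C14R was below that of deletion by 2.62 percentage points (exact p = 0.1, adjusted p = 0.55). An exact test of 3 against 3 libraries cannot give a p below 0.1, and the other 9 tests of shares gave 0.2 to 0.8.

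At day 18, the pattern that led to the choice of the set was that of WWTR1. Its mean in deletion libraries was 60.8% of the WT mean, a log2 difference of -0.46 (SE 0.08), and all deletion libraries lay below all WT libraries. Of the 9 tested members, 3 (WWTR1, TEAD2 and CYR61) were lower in deletion than in WT without overlap, beside 8.53% of all tested genes. CYR61 stood at 68.5% of the WT mean (log2 difference -0.33) and TEAD2 at 85.4%. AMOTL2 was higher without overlap, at 114% (log2 difference 0.16), and YAP1 overlapped, at 93.4%. A count of 1 member, WWTR1, passed the threshold, beside 0.0725% of all genes. That count was 0 when any 1 of the 3 WT and 3 deletion libraries of day 18 was left out. Since the set was chosen on the WWTR1 difference, nothing is read from it or from the count without overlap. The share of all tested genes higher without overlap, as AMOTL2 was, was not computed.

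In C14R at day 18, WWTR1 stood between the other lines. Its mean was 74.1% of the WT mean without overlap (log2 difference -0.29, SE 0.08), which missed the threshold (limma adjusted p = 0.165, 0.0459 with array weights and up to 0.931 over the alternatives). It was the 1 member of 9 that lay below WT without overlap, where 5.64% of all tested genes did. In all, 0 of 9 members passed the threshold between C14R and WT, beside 0.0363% of all genes, with 1 at an unadjusted p under 0.05 (11.1% of all genes). Against deletion, C14R had 122% of the WWTR1 mean without overlap (log2 difference 0.17, limma adjusted p = 0.444). Between these lines 0 of 9 members passed, beside 0.0290% of all genes, with 2 at an unadjusted p under 0.05 (11.2% of all genes). Both comparisons reuse day 18 libraries on which WWTR1 was chosen, those of WT or those of the deletion. Nothing is therefore read from the WWTR1 p-values given here, or from the counts that include WWTR1.

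The interaction terms ask whether the day difference itself differed between constructs. For C14R, 0 of 9 members passed (limma), beside 0% of all genes, with 1 at an unadjusted p under 0.05 (5.73% of all genes). For the deletion, 0 of 9 passed, beside 0.0145% of all genes, with 3 at an unadjusted p under 0.05 (7.36% of all genes). WWTR1 is among these 3, so nothing is read from that count. The WWTR1 interaction was -0.47 in deletion (SE 0.11), given as a description because it contains the day 18 difference on which the set was chosen. In C14R, where the term contains the same WT libraries of day 18, it was -0.22 (limma adjusted p = 0.868), and nothing is read from it. Those of CYR61 and TEAD2 in deletion were -0.50 (limma adjusted p = 0.433) and -0.38 (adjusted p = 0.366).

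Among the regulators and other targets, CRIM1 (chromosome 2, 36355926 to 36551135, plus strand) was the only gene called in a comparison of a variant with WT. That call was between deletion and WT at day 18, where 0.0725% of all tested genes were called. CRIM1 had 1.84, 1.89 and 1.70 FPKM in WT, 1.21, 1.45 and 1.37 in C14R, and 1.12, 1.34 and 0.902 with the deletion. WT was above both other lines, which overlapped each other. The deletion difference was -0.41 (SE 0.07, limma adjusted p = 0.042, 0.0105 to 0.282 over the alternatives). The call was lost without any 1 of the 3 WT libraries, deletion replicate 1 or deletion replicate 3, and was kept without deletion replicate 2 (adjusted p = 0.0139 to 0.208 over these fits). C14R against WT gave -0.26 (SE 0.07, limma adjusted p = 0.164), and the deletion interaction -0.46 (adjusted p = 0.305). At an unadjusted limma p under 0.05, C14R against WT at day 18 had 7 of 25 regulators and 3 of 14 targets, beside 11.1% of all tested genes. Deletion against WT at day 18 had 6 and 3, beside 11.4%. At day 0 these counts were 1 and 1 in C14R, beside 2.81%, and 0 and 2 in deletion, beside 6.22%.

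**Figure D4:**
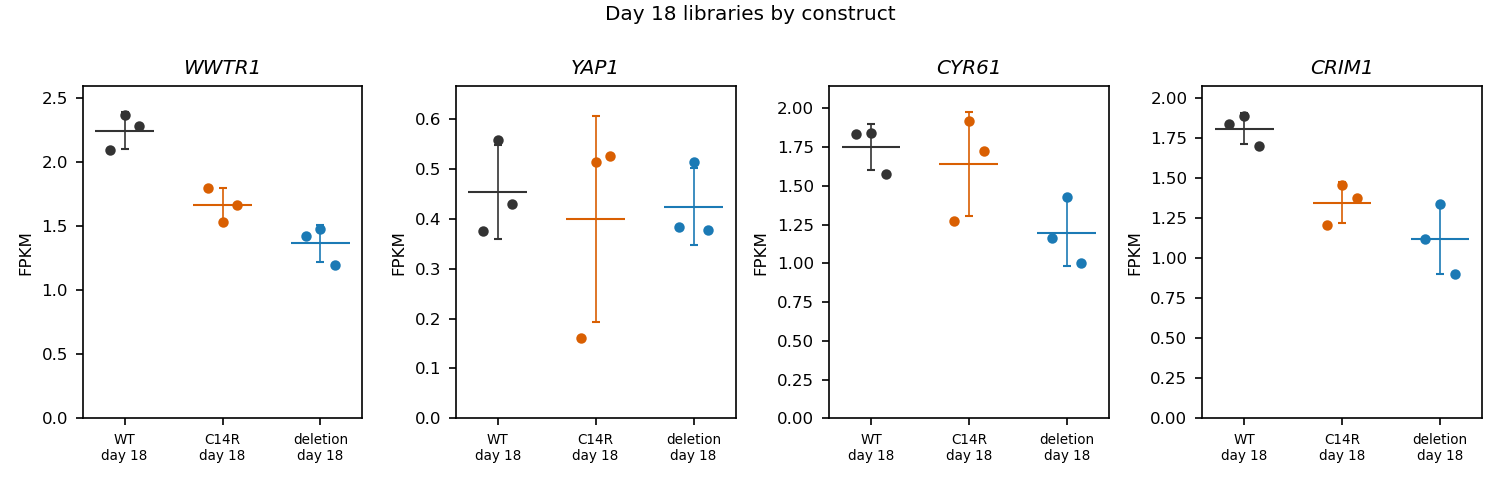
FPKM (vertical axes from 0) of WWTR1, YAP1, CYR61 and CRIM1 in the 9 libraries of day 18, by construct. Points are libraries, lines means and error bars SD (n = 3). WWTR1 steps down from WT to C14R to deletion without overlap, YAP1 overlaps throughout, and CYR61 and CRIM1 are lower in deletion than in WT.

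The genes whose values over the 18 libraries were most like those of WWTR1, by Pearson r of log2(FPKM + 1), were PDE5A (r = 0.989), IL13RA1 (0.988) and LHFP (0.987). For YAP1 they were EPHB4 (0.993), HEG1 (0.993) and EPHA2 (0.992). These correlations are set by the difference between days, which all these genes share, and 50 genes exceeded 0.98 with WWTR1 and 508 with YAP1. After the mean of each day was removed, TEX30 (0.846), CRIM1 (0.833) and TMED7 (0.82) were most like WWTR1, and ISY1-RAB43 (0.799), SCG5 (0.755) and RAC2 (0.755) most like YAP1. Differences between constructs within a day were left in, among them those of WWTR1 and CRIM1 at day 18 given above. All points of 1 library share its scaling, and no p is given.

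The annotation places parts of the exons of some members on or opposite other genes. WWTR1 overlaps the antisense gene WWTR1-AS1 over 795 bp, which had a mean of 0.0393 FPKM, and TEAD2 overlaps CD37 on the other strand over 319 bp, with 0.172 FPKM. YAP1, CTGF and AMOTL2 overlap AP000942.2 (628 bp), AL133346.1 (195 bp) and the pseudogene RPL39P5 (187 bp), which have no values in the table. The use of strand is not given in the sources used here, so reads of such pairs cannot be told apart.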

How the data were processed

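RNA was sequenced after depletion of ribosomal RNA, per the labels' protocols. The authors deposited 1 table of FPKM per gene symbol and library. Per the submitters' processing notes, TopHat2, STAR and Cufflinks 2.2.1 were used with hg38; their roles, the annotation and the use of strand are not given in the sources used here. FPKM hold no counts, so absolute depth is unknown and no counting intervals are given.

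Libraries were grouped by title. Log2(FPKM + 1) of the 13785 genes with a mean of at least 1 FPKM was fitted with limma 3.58.1 in R 4.3.3, with 6 group means over 18 libraries and trended empirical Bayes variances; p-values were adjusted over all tested genes by Benjamini-Hochberg (threshold 0.05). The procedure was tested on simulated data. Separate cultures are not stated, so p-values measure the spread between these libraries, which may be technical.

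The members and gene lists were chosen with earlier results of these data known. The genes named are all members, ZNHIT3, the 4 largest rises and 4 largest falls in WT of each list among genes past the threshold, list genes called between constructs, and the 3 genes most correlated with WWTR1 and with YAP1. Alternatives were other scalings (median-of-ratios, quantile, small RNA left out), a pseudocount of 0.1, no filter or a mean of at least 5 FPKM, no trend, array weights, a replicate block, only the libraries compared, and 1 library left out. Coordinates come from GENCODE release 29 (GRCh38), matched by symbol. Promoters come from RefSeq (GRCh38.p14).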

Additional observations from a re-analysis of the deposited data

How the results depend on the processing

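Of 412 recomputed counts of called genes, 382 stayed within 1.5 times the reported count, and among 438 recomputed day differences of members the only sign changes were those of TEAD1 in WT, which was not called. With array weights, 1 member (WWTR1) and 1 regulator (FRMD6, log2 difference -0.19, limma adjusted p = 0.028, chosen after its values were seen) passed in C14R against WT at day 18, and 1 member (ANKRD1) in C14R against deletion at day 0. The share of all tested genes called under array weights was not computed, so nothing is read from these counts. Between deletion and WT at day 18, the count of members was 0 with a minimum mean of 5 FPKM, where WWTR1 is not tested, 0 with only the libraries compared, and 0 to 0 when 1 library was left out. The count of regulators and other targets there was 0 with only the libraries compared and 0 to 1 when 1 library was left out. Leaving out small RNA genes gave 10 regulators higher in each line and 7, 6 and 7 lower in WT, C14R and deletion. A minimum mean of 5 FPKM, which tests fewer genes, gave 7, 5 and 6 regulators lower and 1 target higher in each line. Where no construction is named, the cause was not tested.

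The replicate numbers did not pair the libraries: same-numbered libraries correlated at -0.363 to 0.168 in 27 pairs of libraries, 4 of them above 0.1. The own number correlated best in 8 of 36 cases. With the number as a replicate block, the count of members between deletion and WT at day 18 was 0, regulators lower in deletion were 11, and every other count between constructs was as reported. Depth limits the lowest values most, chiefly ANKRD1, CTGF and YAP1 at day 18.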
